A study of Mus musculus with 6 samples.

Results

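The genes of glycolysis, of lactate production and of pyruvate use were followed in MS5, a stromal cell line from mouse bone marrow, treated or not with a MEK inhibitor. The list held 36 genes chosen by name, with earlier results of these data known. They were the glucose carriers Slc2a1 and Slc2a3, the enzymes from hexokinase to pyruvate kinase, lactate dehydrogenase, the lactate carriers, the enzymes that set the phosphofructokinase activator, the pyruvate dehydrogenase kinases, the mitochondrial entry of pyruvate and the glycerol phosphate shuttle. Of the 19938 genes named alone by a probe set, 32 were members. Gpi1, Eno1, Pfkfb1 and Mpc2 were not analysed here, because no probe set named them alone. MS5 cells were grown in alpha-MEM with fetal bovine serum and cultured for 7 days with 1 μM PD184352, which inhibits the kinases MEK1 and MEK2 (MEKi), or with its diluent DMSO. The experiment was done 3 times, and each of the 6 cultures gave 1 array. Levels are log2 values after RMA, a normalization that gives all arrays nearly the same distribution of values. All arrays come from 1 cell line without leukaemic cells, so other stroma and co-cultures are not covered.

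Glycolysis splits glucose into pyruvate in the cytosol and yields ATP without oxygen. Pyruvate is then either reduced to lactate, which leaves the cell through monocarboxylate carriers, or enters the mitochondrion, where pyruvate dehydrogenase turns it into acetyl-CoA. Many of these genes are known targets of the hypoxia-inducible factors and of MYC, and stromal cells are known to export lactate that neighbouring cells can use.

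Of 10 stromal marker genes, 1 (Thy1) was below the median of all probe sets, and their summed level lay between 15.18 and 15.28 (log2) with diluent and between 15.21 and 15.37 with MEKi. Endothelial genes were all dim, with 6 of 6 below the median of all probe sets, as were 6 of the 8 measured leukocyte genes, including Ptprc, which defines leukocytes (mean 4.89). The summed leukocyte level ranged from 9.79 to 11.58 with diluent and from 9.78 to 10.97 with MEKi. The other 2 were Cd68, a lysosomal protein of macrophages that other cells also make, and Cd14, the co-receptor for lipopolysaccharide, and they went opposite ways. Cd68 was lower with MEKi, with differences of −0.93, −0.14 and −0.74 in experiments 1, 2 and 3 (log2 fold change −0.61, limma adjusted p = 0.249). It was the brightest leukocyte gene, at 10.62, 9.10 and 11.41 with diluent. Levels were summed on the linear scale, so the summed leukocyte level mostly follows Cd68. Cd14 was higher, with 0.13, 0.31 and 0.32 (log2 fold change 0.25, limma adjusted p = 0.373), and its groups did not overlap. Summed levels reached 7.52 to 7.73 for the endothelial list, 8.17 to 8.31 for the epithelial list, with 4 of 5 genes below that median, and 9.40 to 10.20 for the skeletal muscle list, with 4 of 7 below it. Their part in the differences described here was not tested.

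The promoters of the genes with the largest differences, Slc2a1, Hk2 and Eno2, of Pdk1, and of the lactate dehydrogenase pair Ldha and Ldhb are shown, because the first were lower with MEKi and Ldhb was higher. Each line holds the 250 bases before a RefSeq transcript start in GRCm38.p6, 5′ to 3′ on the gene's strand. Capitals mark ACGTG or GCGTG, the usual cores of a hypoxia response element, read on either strand (so CACGT or CACGC also), and CACGTG, the E box that MYC and its partners bind and that holds ACGTG. The windows lie at chr4:119108495-119108744 on the forward strand (Slc2a1), chr6:82774455-82774704 on the reverse strand (Hk2), chr6:124769674-124769923 on the reverse strand (Eno2), chr2:71872974-71873223 on the forward strand (Pdk1), chr7:46845554-46845803 on the forward strand (Ldha) and chr6:142507958-142508207 on the reverse strand (Ldhb).
Slc2a1: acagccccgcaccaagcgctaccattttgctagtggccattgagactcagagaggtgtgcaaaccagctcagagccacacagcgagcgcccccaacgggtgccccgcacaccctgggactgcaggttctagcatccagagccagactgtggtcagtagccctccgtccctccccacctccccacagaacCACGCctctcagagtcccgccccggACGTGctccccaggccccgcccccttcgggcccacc
Hk2: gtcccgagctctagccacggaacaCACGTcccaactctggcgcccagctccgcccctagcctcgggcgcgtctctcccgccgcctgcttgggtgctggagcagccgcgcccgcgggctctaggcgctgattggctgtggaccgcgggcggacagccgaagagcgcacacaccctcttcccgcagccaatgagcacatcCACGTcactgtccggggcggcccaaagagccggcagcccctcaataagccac
Eno2: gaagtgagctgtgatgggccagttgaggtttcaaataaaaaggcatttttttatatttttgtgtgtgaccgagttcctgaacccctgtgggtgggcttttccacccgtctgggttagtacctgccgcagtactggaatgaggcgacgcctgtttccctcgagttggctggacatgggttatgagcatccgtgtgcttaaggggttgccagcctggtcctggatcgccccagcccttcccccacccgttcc
Pdk1: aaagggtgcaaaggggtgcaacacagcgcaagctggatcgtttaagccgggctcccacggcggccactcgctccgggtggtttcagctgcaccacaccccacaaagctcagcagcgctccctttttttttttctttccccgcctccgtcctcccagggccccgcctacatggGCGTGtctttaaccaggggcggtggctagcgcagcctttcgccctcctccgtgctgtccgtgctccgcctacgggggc
Ldha: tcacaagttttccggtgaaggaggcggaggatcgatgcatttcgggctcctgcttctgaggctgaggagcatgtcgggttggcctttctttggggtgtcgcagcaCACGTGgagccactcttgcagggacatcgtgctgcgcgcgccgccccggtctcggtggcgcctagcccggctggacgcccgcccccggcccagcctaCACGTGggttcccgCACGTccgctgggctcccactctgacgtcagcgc
Ldhb: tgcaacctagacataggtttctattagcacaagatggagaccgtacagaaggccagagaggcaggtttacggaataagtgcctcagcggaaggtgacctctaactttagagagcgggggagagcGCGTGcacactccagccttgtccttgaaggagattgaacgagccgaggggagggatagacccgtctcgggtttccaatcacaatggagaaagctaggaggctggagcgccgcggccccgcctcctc
The Ldha window held 5 matches to ACGTG when both strands were read, 4 of them in its 2 E boxes. Hk2 had 2 matches and Slc2a1 had 1 to each core, whereas Pdk1 and Ldhb had 1 GCGTG each and Eno2 had none. Ldha and Pdk1 each have a second RefSeq start, not shown, whose window held 1 GCGTG and no ACGTG for Ldha and no match for Pdk1. Pfkfb3, with the largest positive log2 fold change among members, is not shown either. Its window at chr2:11553930-11554179 held 1 ACGTG, and that at chr2:11502091-11502340 held 2 matches to ACGTG in 1 E box and 1 GCGTG. Gpd2, also higher, held 1 ACGTG at chr2:57238132-57238381 and no match at chr2:57237428-57237677. Pfkl, which was lower, held 1 GCGTG and no ACGTG. RefSeq windows were found for 31 members, Slc2a3 being the one without, and numbered 47 because some genes have several starts. ACGTG occurred in 44.7% of them against 16.6% of all 32851 windows, GCGTG in 48.9% against 28.2%, and CACGTG in 12.8% against 6.02%. The members' windows also held more CpG dinucleotides, with a median of 13 against 6. Among windows with 15 or more CpG, a limit set after the values were seen, ACGTG occurred in 70% of the 20 member windows and 25.1% of all, and GCGTG in 40% and 57.3%. These 20 windows came from 17 genes, and those of Aldoa overlap and count the same ACGTG more than once. These are matches of letters, with no binding measured.

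No member passed the test of MEKi against diluent at an adjusted p under 0.05 (limma, adjusted over all probe sets), a threshold that 0.135% of all named genes passed. At an unadjusted p under 0.05, 8 of the 32 members were lower with MEKi, against 2.31% of all named genes, and 4 were higher, against 7.85%. The 8 were Slc2a1, Hk2, Pfkl, Pgam1, Eno2, Pkm, Ldha and Pdk1, and the 4 were Pgam2, Ldhb, Pfkfb3 and Gpd2. Without experiment 1 the lower count was 4, and in a fit that ignored the pairing of arrays within experiments it was 0. Slc2a1, Hk2 and Eno2 were also at least 1.5-fold lower, as were 0.311% of named genes at such a p, while 0 members were 1.5-fold higher, against 0.246%. The RNA came from whole cultures, in which fewer cells with a transcript and less of it per cell cannot be told apart. This count of 3 became 1 without experiment 1 and 5 without experiment 2.

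Among all members, 11 were lower with MEKi in all 3 experiments, against 7.42% of all named genes, and 9 were higher in all 3, against 25.2%. Of the 11, 9 belonged to the 17 glucose carriers and glycolytic enzymes, whose median log2 fold change was −0.17. The median over the 32 members was −0.02 and that over all named genes 0.04, so the list as a whole lay close to the array. By experiment, the median of the 17 genes was −0.37, −0.08 and −0.09. The median of all named genes was −0.002, 0.11 and 0.02 in the same order, so in experiment 2 a difference of 0.11 is what the typical gene showed. In 2 members the MEKi and diluent arrays did not overlap, against 8.04% of named genes.

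**Figure D1:**
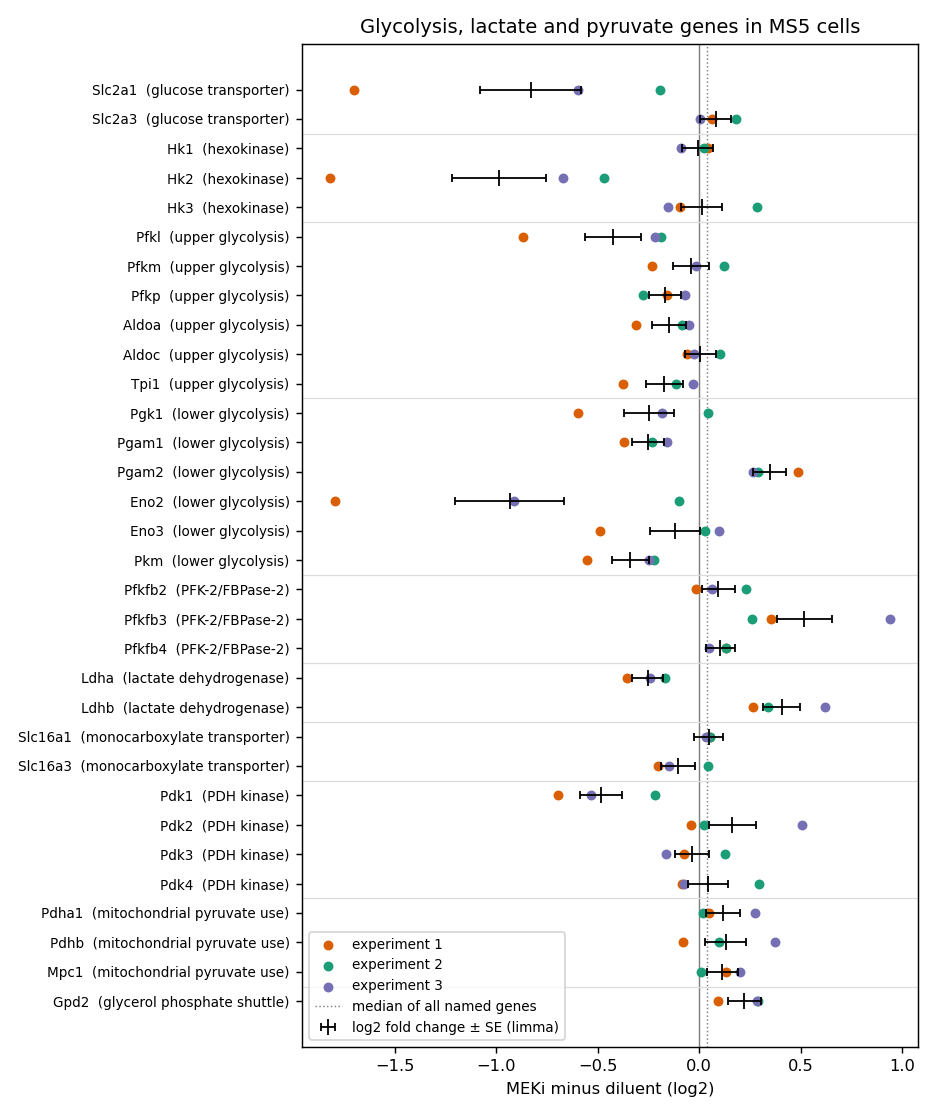
MEKi minus diluent (log2) for the 32 measured members, ordered by role. Coloured points are experiments 1, 2 and 3, black ticks with bars the limma log2 fold change ± its standard error, and the dotted line the median of all named genes (0.04). Slc2a1, Hk2 and Eno2 lie farthest to the left, mainly through experiment 1, and Pfkfb3 and Ldhb farthest to the right.

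Glucose enters most cells through facilitative carriers. Slc2a1, the widely expressed carrier GLUT1, measured 11.81, 10.17 and 12.51 with diluent in experiments 1, 2 and 3 and 10.11, 9.98 and 11.91 with MEKi (log2 RMA values). It was lower with MEKi in each experiment (differences −1.70, −0.19 and −0.60), yet the groups overlapped, and diluent alone spanned 2.34 between experiments. The log2 fold change was −0.83 with a standard error of 0.25 (95% confidence interval −1.41 to −0.24), a 1.78-fold lower level, with an adjusted p of 0.356 (limma). Without experiment 1 it was −0.39. Slc2a3, the carrier GLUT3, was dim in every array (5.47 to 5.69), and its log2 fold change was 0.08 ± 0.08 (SE).

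Hexokinases trap glucose as glucose 6-phosphate. Hk2, the inducible form, measured 8.61, 8.02 and 9.64 with diluent and 6.79, 7.55 and 8.97 with MEKi. The lowest value was the MEKi array of experiment 1, and the MEKi array of experiment 3 stood above the diluent arrays of experiments 1 and 2. The log2 fold change of −0.99 ± 0.23 (SE; 95% confidence interval −1.53 to −0.44), a 1.98-fold lower level, was the largest of all members, with an adjusted p of 0.243 (limma), and it was −0.57 without experiment 1. The brighter probe set of Hk1, the constitutive form, lay between 11.49 and 11.58 in all 6 arrays (log2 fold change −0.01 ± 0.07). The second probe set of Hk1 gave −0.19 ± 0.09, with differences of −0.31, 0.0007 and −0.25 in experiments 1, 2 and 3. Which of the 2 better reads Hk1 was not tested, so a steady Hk1 level is uncertain. Hk3 was dim, from 4.97 to 5.26, with a log2 fold change of 0.01. The difference of Hk2 minus that of Hk1 was −1.86, −0.49 and −0.58 in experiments 1, 2 and 3 (mean −0.98 ± 0.77, SD, n = 3), and −0.80 on average against the second Hk1 probe set.

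Upper glycolysis turns glucose 6-phosphate into triose phosphates. Pfkl, the liver form of phosphofructokinase, measured 11.15, 10.54 and 11.25 with diluent and 10.29, 10.35 and 11.03 with MEKi, and was lower in each pair. Its log2 fold change was −0.42 ± 0.14 (SE), with an adjusted p of 0.381 (limma), and −0.20 without experiment 1. The other phosphofructokinases differed less, with −0.17 ± 0.08 for the platelet form Pfkp, lower in all 3 experiments, and −0.04 ± 0.09 for the muscle form Pfkm, lower in 2 of 3. Aldoa, the main aldolase, and Tpi1, which interconverts the triose phosphates, were lower in all 3 experiments, with log2 fold changes of −0.15 ± 0.08 and −0.17 ± 0.09 and unadjusted p-values of 0.121 and 0.0983 (limma). Their differences in experiments 1, 2 and 3 were −0.31, −0.08 and −0.05 for Aldoa and −0.37, −0.11 and −0.03 for Tpi1, and without experiment 1 the log2 fold changes were −0.07 for both. Aldoc, the brain aldolase, was dim and stood at 0.01.

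Lower glycolysis harvests ATP and ends in pyruvate. Eno2, the neuronal enolase, measured 9.42, 7.39 and 10.31 with diluent and 7.63, 7.29 and 9.40 with MEKi. Its diluent range of 2.92 was the widest of all members, and the difference was −1.79 in experiment 1, −0.91 in experiment 3 and −0.10 in experiment 2. The log2 fold change was −0.93 ± 0.27 (SE; 95% confidence interval −1.57 to −0.30), a 1.91-fold lower level, with an adjusted p of 0.336 (limma), and −0.50 without experiment 1. Pkm, which encodes the pyruvate kinases of muscle and proliferating cells, measured 11.46, 10.95 and 11.54 with diluent and 10.91, 10.73 and 11.29 with MEKi, a log2 fold change of −0.34 ± 0.09 (adjusted p = 0.304). Its second probe set gave −0.29 (adjusted p = 0.410).

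Pgk1, the first ATP-forming step, had differences of −0.60, 0.04 and −0.18 in experiments 1, 2 and 3 (log2 fold change −0.25 ± 0.12, and −0.07 without experiment 1). Pgam1, the phosphoglycerate mutase of most tissues, was lower in each, with −0.37, −0.23 and −0.16 (log2 fold change −0.25 ± 0.08, adjusted p = 0.371). Both have 3 probe sets, 2 of them with identical values, and both have near-identical copies in the genome, so that their values are uncertain. Eno3, the muscle enolase, had −0.49, 0.03 and 0.10 (log2 fold change −0.12, and 0.06 without experiment 1). Pgam2, the muscle mutase, went the other way, from 5.38, 5.48 and 5.40 with diluent to 5.87, 5.77 and 5.67 with MEKi. All MEKi arrays were above all diluent arrays, at a dim level, and the log2 fold change was 0.35 ± 0.08 (adjusted p = 0.232, limma). Of 7 muscle marker genes, 0 passed the adjusted threshold (limma), and their median was 0.08. In all 3 experiments 3 of the 7 were higher, against 25.2% of all named genes. Mylpf, a myosin light chain, had differences of 0.22, 0.43 and 0.13 with no overlap of the groups, and the actin Acta1 had 0.35, −0.06 and 0.80. The log2 fold changes of Ckm, the muscle creatine kinase, and Mb, myoglobin, were −0.02 and −0.002. A part of muscle-type expression in the value of Pgam2 was not tested.

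Phosphofructokinase is set by fructose 2,6-bisphosphate, which the PFKFB enzymes make and break down. Pfkfb3, the form with the strongest kinase activity, measured 5.81, 6.99 and 6.52 with diluent and 6.16, 7.25 and 7.46 with MEKi. It was higher in each experiment, most in experiment 3 (0.94), although the groups overlapped. The log2 fold change of 0.52 ± 0.13 (SE; 95% confidence interval 0.20 to 0.83), a 1.43-fold higher level, was the largest positive one among members, with an adjusted p of 0.281 (limma) and a value of 0.31 without experiment 3. Pfkfb4 was higher by 0.13, 0.13 and 0.05 and Pfkfb2 had differences of −0.01, 0.23 and 0.07, with log2 fold changes of 0.11 and 0.09.

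**Figure D2:**
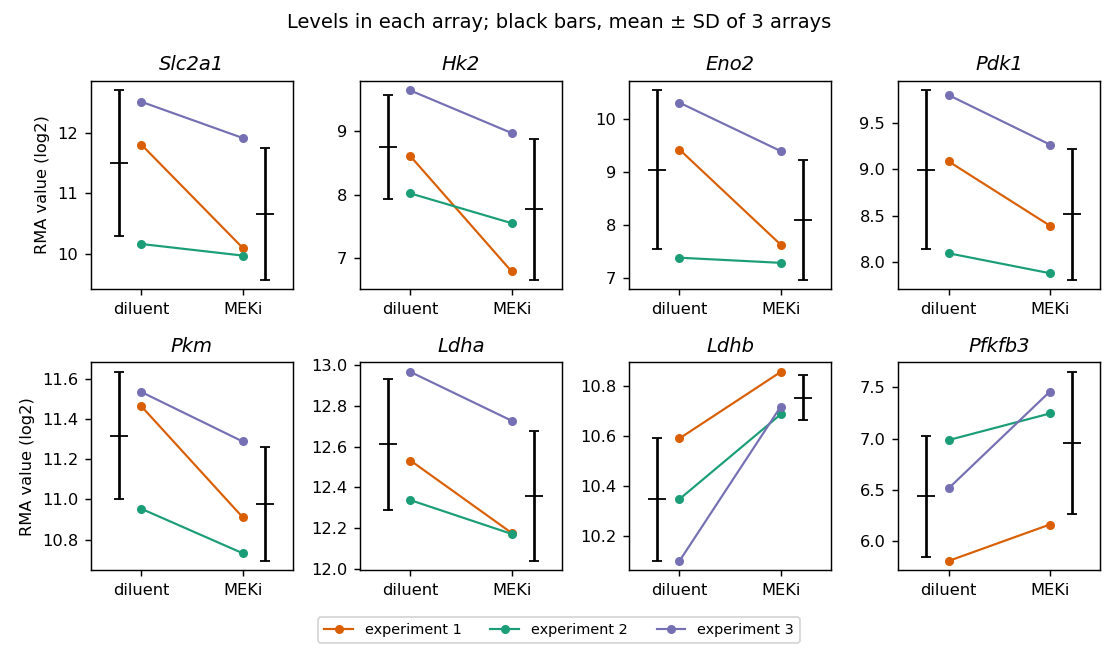
Log2 RMA values of 8 members in the 6 arrays, each with its own vertical scale. Lines join the diluent and MEKi arrays of 1 experiment, and black bars give the mean ± SD of 3 arrays. Slc2a1, Hk2, Eno2, Pdk1, Pkm and Ldha were lower and Ldhb and Pfkfb3 higher with MEKi in each experiment, and the groups do not overlap in the panel of Ldhb.

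Lactate dehydrogenase is a tetramer of LDHA chains, which favour the making of lactate, and LDHB chains, which favour its use. Ldha measured 12.53, 12.34 and 12.97 with diluent and 12.18, 12.17 and 12.73 with MEKi, lower in each pair (log2 fold change −0.25 ± 0.08, SE, adjusted p = 0.361, limma). Ldhb measured 10.59, 10.35 and 10.10 with diluent and 10.86, 10.69 and 10.72 with MEKi. The lowest MEKi array of Ldhb was above its highest diluent array. Its log2 fold change was 0.41 ± 0.09 (95% confidence interval 0.19 to 0.62), a 1.33-fold higher level, with an adjusted p of 0.215, and the second probe set gave 0.41 with an adjusted p of 0.200. It lay between 0.30 and 0.48 when each experiment was left out in turn.

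The difference of Ldha minus that of Ldhb was −0.62, −0.51 and −0.86 in experiments 1, 2 and 3 (mean −0.66 ± 0.18, SD, n = 3). It had the same sign in 3 of 3 experiments, and an exact sign-flip permutation test gave a two-sided p of 0.25, the smallest that 3 pairs allow. The same exact p of 0.25 was found for Hk2 against Hk1, for Slc2a1 against Slc2a3 (mean −0.91 ± 0.75) and for Slc16a3 against Slc16a1 (mean −0.15 ± 0.13). Because the 4 exact p-values are equal, Benjamini-Hochberg adjustment over the 4 pairs leaves them at 0.25. With 3 experiments the design cannot reach 0.05 in this test. The lactate carriers themselves had log2 fold changes close to 0. Slc16a1 (MCT1), which carries lactate both ways, was 0.05, 0.05 and 0.03 higher, and Slc16a3 (MCT4), the exporter of glycolytic cells, had a log2 fold change of −0.10 ± 0.08.

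Pyruvate dehydrogenase kinases switch off the entry of pyruvate into the citric acid cycle. Pdk1 measured 9.09, 8.09 and 9.80 with diluent and 8.39, 7.88 and 9.27 with MEKi. MEKi was lower in every pair (differences −0.69, −0.22 and −0.53), although diluent alone spanned 1.71. Its log2 fold change was −0.48 ± 0.10 (SE; 95% confidence interval −0.72 to −0.24), a 1.40-fold lower level, with the lowest p of all members (unadjusted 0.00215, adjusted 0.195, limma), and it lay between −0.61 and −0.38 when each experiment was left out in turn. None of the other 3 kinases kept 1 direction in all experiments. Pdk2 stood at 0.16 ± 0.12, mainly from experiment 3 (0.51), Pdk3 at −0.04 ± 0.08 and Pdk4, which fasting and glucocorticoids induce, at 0.04 ± 0.10.

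The genes by which mitochondria take up and oxidise pyruvate had small positive log2 fold changes that did not reach an unadjusted p of 0.05 (limma). Pdha1 and Pdhb, subunits of pyruvate dehydrogenase, had log2 fold changes of 0.12 ± 0.08 and 0.13 ± 0.10, and Mpc1, a subunit of the pyruvate carrier, of 0.11 ± 0.08. Gpd2, the mitochondrial glycerol phosphate dehydrogenase, which hands cytosolic electrons to the respiratory chain, measured 9.32, 9.39 and 9.05 with diluent and 9.41, 9.68 and 9.33 with MEKi. It was higher in each pair, with a log2 fold change of 0.22 ± 0.08 (adjusted p = 0.418, limma), and the groups overlapped.

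Between cultures that had received diluent alone, the members varied more than the typical gene. The median range over the 3 diluent arrays was 0.44 for the members and 0.22 for all named genes. It was as wide in some related lists, with 0.43 for the citric acid cycle and 0.58 for the pentose phosphate pathway. The other pyruvate dehydrogenase genes had 0.55. Narrower ranges were found for the respiratory chain subunits (0.34), the other glycolysis and gluconeogenesis genes (0.29) and the other glucose and lactate carriers (0.20). Of the 32 members, 28 were brighter than the median of all probe sets, whereas all named genes include dim ones. RMA compresses differences of dim genes, and the part of signal level in these ranges was not tested. In 14 members, among them Slc2a1, Hk2, Pfkl, Tpi1, Pgk1, Eno2, Pkm, Ldha and Pdk1, the diluent level was highest in experiment 3, intermediate in experiment 1 and lowest in experiment 2, an order held by 15% of all named genes and singled out after the values were seen. For Slc2a1, Hk2, Eno2 and Pdk1, the smallest difference with MEKi was in experiment 2, where the diluent level was lowest. Their largest difference was in experiment 1, although their diluent level was highest in experiment 3. Tpi1 and Aldoa had the same diluent order, but their smallest difference was in experiment 3 (−0.03 and −0.05). A difference and the diluent level within it share an array, so no correlation was computed.

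Hypoxia-responsive genes outside glycolysis, also listed with earlier results of these data known, had the same order in 16 of 22. Their median diluent range was 1.29. Their median log2 fold change was −0.38, and by experiment −0.70, 0.13 and −0.43. At an adjusted p under 0.05 (limma), 1 of the 22 fell and 0 rose, where 0.135% of all named genes passed in either direction. The gene that fell was Ak4, a mitochondrial adenylate kinase. It measured 7.61, 6.38 and 8.39 with diluent and 6.66, 5.76 and 7.52 with MEKi (log2 fold change −0.81 ± 0.09, adjusted p = 0.0367, limma). The second, dimmer probe set of Ak4 gave −0.22 and did not pass (adjusted p = 0.493, limma), with differences of −0.41, −0.24 and −0.02. The call therefore rests on the brighter probe set alone, and which of the 2 better reads Ak4 was not tested. Under 11 alternatives, applied to its brighter probe set after the values were seen, Ak4 kept its direction (−0.91 to −0.75). It passed in 5 and did not pass in 6. Among the 6 were each experiment left out in turn (adjusted p from 0.0559 to 0.131, limma) and the fit without the block (adjusted p = 0.9995, limma). Bhlhe40, a clock and hypoxia repressor, was at −0.72 (adjusted p = 0.162). At an unadjusted p under 0.05, 7 of the 22 were lower, against 2.31% of all named genes, and 1 was higher, against 7.85%. The higher gene was Ppp1r3c, a glycogen-targeting subunit of protein phosphatase (0.32).

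Regulators of glycolytic genes gave 0 of 17 at the adjusted threshold, with a median of −0.03. At an unadjusted p under 0.05, 1 was lower, against 2.31% of all named genes, and 0 were higher, against 7.85%. The lower gene was Epas1, which encodes HIF-2α (−0.28), with differences of −0.34, −0.50 and −0.002. Hif1a RNA, which encodes the oxygen-regulated subunit of the factor, had a log2 fold change of 0.01 ± 0.07, and Myc of −0.14 ± 0.07. Those farthest from 0 were Egln1, the prolyl hydroxylase that marks HIF for destruction and is itself induced by hypoxia (−0.40), and the MAX partner Mxi1 (−0.39), each higher with MEKi in experiment 2 only. Both also stand in the hypoxia list. RNA levels do not report the amount or activity of these proteins.

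Downstream of pyruvate, 0 of 15 citric acid cycle genes and 0 of 45 respiratory chain subunits passed the adjusted threshold. Their medians were 0.13 and 0.10, against 0.04 for all named genes. At an unadjusted p under 0.05 (limma), 1 of the 15 and 5 of the 45 were higher and 0 of either were lower, where 7.85% of all named genes were higher and 2.31% lower. Of the respiratory chain subunits, 17 of 45 were higher in all 3 experiments and 0 were lower in all 3, against 25.2% and 7.42% of all named genes. The 5 were Ndufb6 (0.29), Ndufa1 (0.27), Ndufa3 (0.19) and Ndufa7 (0.17) of complex I and Cox6a1 (0.25) of complex IV. In the cycle the largest were Sucla2 (0.26) and Suclg1 (0.21) of succinyl-CoA ligase. The diluent order of experiments 3, 1 and 2 was found in 0 of the 15 and 0 of the 45.

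Of 17 other genes of glycolysis and gluconeogenesis, 0 passed the adjusted threshold (limma), and 4 were higher and 0 lower at an unadjusted p under 0.05, with a median of 0.12. Of all named genes, 7.85% were higher and 2.31% lower at that unadjusted p, and their median was 0.04. Bpgm, which makes 2,3-bisphosphoglycerate, was at 0.33, Pck1, the cytosolic enzyme of gluconeogenesis, at 0.31, Minpp1, an inositol phosphate phosphatase that also acts on 2,3-bisphosphoglycerate, at 0.22, and Adpgk, an ADP-dependent glucokinase, at 0.22. Of 13 other glucose and lactate carriers, 0 passed and 2 were higher at the unadjusted threshold. These were Slc2a4, the insulin-regulated carrier GLUT4 (0.43), and Emb, a chaperone of lactate carriers (0.28). Of 6 other pyruvate dehydrogenase genes, 0 passed and 1, Pdpr, was higher at the unadjusted threshold (0.22), while Dld stood at 0.24.

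**Figure D3:**
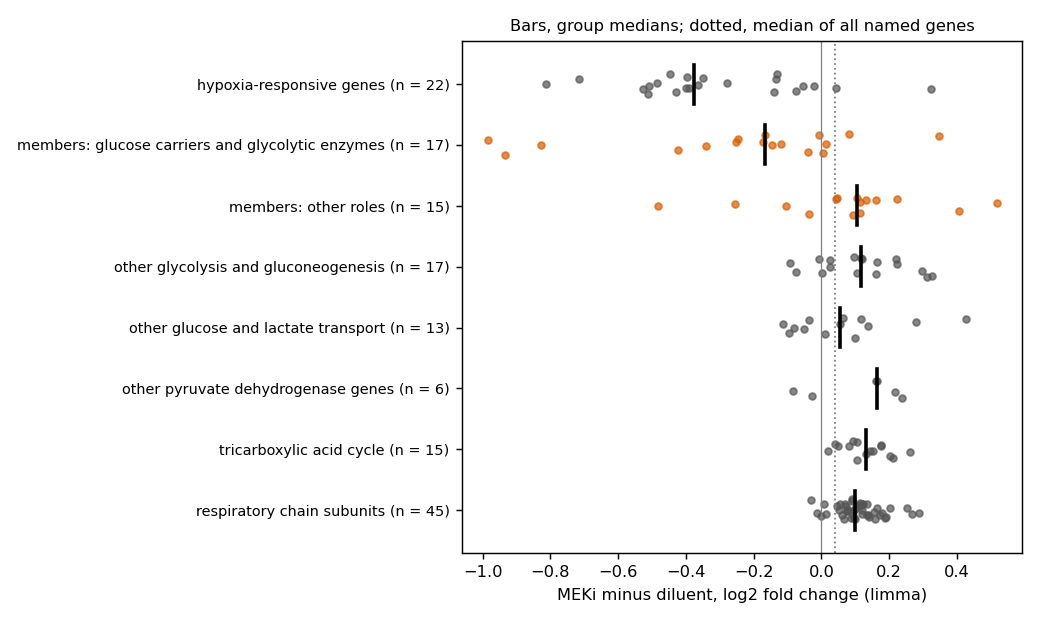
Log2 fold changes of MEKi against diluent (limma) for genes in 8 groups, with 1 point per gene and black bars at the group medians. The dotted line is the median of all named genes (0.04). The glucose carriers and glycolytic enzymes (median −0.17) and the hypoxia-responsive genes (−0.38) reach farther to the left than the citric acid cycle (0.13) and respiratory chain (0.10) genes.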

How the data were processed

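RNA of 6 MS5 cultures was hybridised to Affymetrix mouse Gene ST arrays. The authors normalized the intensities with RMA (background correction, quantile normalization and probe set summary) and deposited log2 values, and named Partek for their statistics, with no version given in the sources used here. RMA gives all arrays nearly the same distribution, so a shift shared by most genes cannot be seen, and it compresses differences of dim genes. Background flags were not used here, and array number limits the precision.

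Values were used as deposited, with 0 columns of array values left out. Of 28853 probe sets, 21789 named 1 gene, 1621 several and 5443 had no symbol listed. Where a gene had several probe sets, as did 5 members, the brightest stood for it. The comparison was fitted by limma 3.58.1 (R 4.3.3, lmFit and eBayes) with each experiment as a block (2 residual and 5.17 prior degrees of freedom). Benjamini-Hochberg adjustment covered all probe sets (threshold 0.05). The labels and methods put 1 diluent and 1 MEKi array in each experiment, and deviations from group means correlated by 0.81, 0.59 and 0.62 within experiments and by −0.61 to 0.21 between them. The methods' 1.5-fold threshold was combined with an unadjusted p of at most 0.05, since their P of 0.05% was read as 0.05, with the stricter reading as an alternative.

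The members and lists were chosen with earlier results of these data known. All members are named, and of each other list the genes past the threshold and at most 2 with the largest change. Genes named beyond that (Hif1a, Myc, Epas1, Ppp1r3c, Pygm, Minpp1, Adpgk, Ndufa3, Ndufa7, Cox6a1 and markers) were chosen after their values were seen. Promoter sequences are RefSeq's for GRCm38.p6. The procedure was also run on simulated data, with variances drawn from the fitted prior and the same change in every experiment. Differences of many members varied between experiments, so that run does not show how the fit handles them. Alternatives were no block, a random block, quantile normalization, centring, bright probe sets only, probe sets naming 1 gene, a trended robust prior, array weights, each experiment left out, the methods' analysis of variance, a stricter p and averaging over the probe sets of each gene. Plots used matplotlib 3.10.9 (Python 3.11.15).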

Additional observations from a re-analysis of the deposited data

How the results depend on the processing

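No member passed an adjusted p of 0.05 (limma) under any of 11 alternatives, the lowest being 0.0672. The count of members lower at an unadjusted p under 0.05 (8) was 0 with no replicate block, 2 with a random block and 4 to 9 when each experiment was left out. The count at 1.5-fold (3) was 0 with no replicate block, 1 with a random block, 0 by the methods' analysis of variance, 0 at p of at most 0.0005 and 1 to 5 with each experiment left out. The count lower in all experiments (11) was 11 to 18 with each experiment left out, 18 without experiment 2, where only 2 signs are needed. The median of the members (−0.02) ranged from −0.12 to 0.04, positive without experiment 1 (0.0418) and without experiment 3 (0.000328). Of 348 single member values, 333 kept their direction and 15 reversed, in 8 members whose reported value was at most 0.16 in size. Hk3 became −0.0257 with quantile normalization, −0.0192 with centring and −0.0392 with array weights, Aldoc −0.0261, −0.0260 and −0.0114 under the same settings, and Pdk4 −0.00204 with array weights. With each experiment left out, the range was −0.0335 to 0.0341 for Hk1, −0.124 to 0.0960 for Hk3, −0.122 to 0.0549 for Pfkm, −0.0432 to 0.0400 for Aldoc, −0.229 to 0.0649 for Eno3, −0.00943 to 0.265 for Pdk2, −0.118 to 0.0263 for Pdk3 and −0.0807 to 0.109 for Pdk4. The cause was not tested. With 3 experiments and 1 array per condition in each, differences near the spread between experiments could not be called.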

Other observations

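Side branches of glycolysis were examined in the same way. Of 15 genes of glycogen and hexosamine metabolism, 0 passed an adjusted p of 0.05 (limma). At an unadjusted p under 0.05, 2 were lower, against 2.31% of all named genes, and 1 was higher, against 7.85%. The lower ones were Gbe1, the glycogen branching enzyme (log2 fold change −0.53, adjusted p = 0.302), and Gys1, the muscle-type glycogen synthase (−0.41, adjusted p = 0.384). Gys1 measured 11.14, 10.41 and 11.66 with diluent in experiments 1, 2 and 3, and Gbe1 measured 10.47, 10.04 and 11.66, so both had their highest diluent level in experiment 3 and their lowest in experiment 2. Gbe1 also stands in the hypoxia list. The higher one was Pygm, the muscle glycogen phosphorylase (0.22).

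Of 7 genes of the pentose phosphate pathway, which branches off at glucose 6-phosphate, 0 passed at either threshold (limma), and their median was −0.01. Taldo1, a transaldolase, was at 0.27, mainly from experiment 3 (0.72), and was followed by Rpe, an epimerase, at 0.06.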
